A study of Mus musculus with 36 samples.

Results

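The complement genes described here are C3, C4a, C4b, Hc, C6, C8a, C8b, C9 and Cfb. They are 9 of 21419 autosomal genes, which are the protein-coding genes of the annotation used and C4a. Whole-genome bisulfite sequencing counted methylated and unmethylated reads at CpG sites in the livers of 24 mice. For each gene the CpGs from 5000 bases before the gene to 1000 bases past its end in the mouse genome build mm9 were taken, 3942 CpGs of 18887127 on the autosomes, and summed in fixed 500-base windows. A window was tested where it held 5 CpGs or more and each animal had 30 reads or more, 359 of the 1456902 tested over all autosomes. Hc contributed 94 windows, C8a 50, C3 37, C8b 36, C9 36, C6 34, C4a 29, C4b 27 and Cfb 16.

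The animals came from C57BL/6N (B6) and C3H/HeN, which are 2 inbred strains, and from both reciprocal crosses. The 8 groups of 3 animals were B6 males and females, C3H/HeN males and females, and the sons and daughters of B6 dams with C3H/HeN sires (B6C3F1) and of C3H/HeN dams with B6 sires (C3B6F1). The parental animals were the sires and dams of the F1 animals. They were mated at 10 weeks of age and were 16 weeks old when the pups were weaned. All parents and offspring were sacrificed at 20 weeks of age. The dams had borne and nursed a litter whereas the F1 daughters were virgin, so that sex and breeding history cannot be told apart in the parents. No animal carried an engineered allele, and all received the same diets. Every library was made from pulverized whole liver, so that a change in the mixture of cells and a change within the cells of a type cannot be told apart.

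Complement is a set of plasma proteins, made largely by hepatocytes, that mark and lyse microbes. Activation passes through C4 (classical and lectin routes) or through factor B (Cfb, alternative route) and converges on cleavage of C3. It ends with cleavage of C5, which is encoded by Hc, and assembly of C6, C7, C8 and C9 into a membrane pore. Mice carry a pair of neighbouring C4 genes, of which the annotation used lists C4b as protein coding and C4a as a processed transcript. C4b encodes the active complement protein, and C4a encodes a near-copy long known as sex-limited protein, found in the plasma of males in some strains. The activity of the terminal pathway in serum is known to be lower in females of common laboratory strains.

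The autosomal libraries held between 3.66e+08 and 6.20e+08 counts, 19.4 to 32.8 per CpG, and mean methylation between 75.05% and 77.53%. The start regions of marker genes were compared with the liver label: those of 5 hepatocyte genes (Alb, Apoa1, Apoa2, Fgb and Serpinc1) averaged 16.8% to 30.4% methylation and those of 6 leukocyte genes 62.8% to 87.9%. The other lists spanned 22.7% to 68.7% (2 cholangiocyte genes), 2.24% to 64.3% (3 endothelial), 2.16% to 44.3% (3 stellate) and 3.19% to 76.8% (4 genes of other organs). A low start was thus not particular to the hepatocyte genes, and these levels do not identify the tissue by themselves. Of 23 marker start regions over 6 cell-type lists, 0 passed the adjusted p-value in either comparison of the sexes. Of all start regions 0.509% passed between dams and sires and 0.23% between daughters and sons. With shares so low, 0 of 23 does not show that the mixtures of cells were alike. Between the strains 5 of the 23 passed, where 9.04% of all start regions did. The summed levels overlapped between the sexes in every list; in the leukocyte list sires ranged from 77.3% to 83.0% and dams from 76.0% to 82.8%. Between the strains the leukocyte list did not overlap, with 76.0% to 80.5% in B6 parents and 80.8% to 83.0% in C3H/HeN parents, and the other 5 lists did. Any part of the mixture of cells in the results was not tested further.

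Differences were tested with limma on the log2 ratio of methylated to unmethylated counts, fitted over all windows, with 8 group means and Benjamini-Hochberg adjustment over all 1456902 windows. A window was called where the adjusted p was below 0.05 and the group means differed by at least 20 percentage points. A count by the adjusted p alone, which was added after the data were seen, is given beside it.

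In windows of 5 CpGs or more C3, C4a, C6, C8a and C9 had windows past the adjusted p between the sexes in both generations. C8b, Hc and Cfb had such windows in the parents only, which does not show that the sexes were alike in the F1. The largest C8b difference lay in the same window in both generations, at 16.2 points in the parents and 11.5 in the F1 (limma adjusted p = 0.00122 and 0.0844). C8b also had 1 window of fewer CpGs called in the F1, given below. Between dams and sires 4 member windows were called, 3 in C9 higher in dams and 1 in C3 lower in dams, where 0.104% of all windows were called (0.0684% higher and 0.0357% lower). By the adjusted p alone 41 member windows differed (11.4%, against 0.974% of all windows), 26 higher and 15 lower in dams, where 0.512% and 0.462% of all windows were. Between F1 daughters and F1 sons 2 windows were called, 1 in C9 higher and 1 in C3 lower in daughters (background 0.051% of all windows, 0.0474% higher and 0.00357% lower). By the adjusted p alone 23 differed (6.41%, against 0.343%), 12 higher and 11 lower in daughters, where 0.292% and 0.0518% of all windows were. Of the 359 member windows 17 passed the adjusted p in both generations with the same direction, where 0.235% of all 1456902 windows did. These 17 were among 47 that passed in either generation, and 10 of the 17 were higher in females and 7 lower. The 7 that were lower all lay in C3, and the 10 that were higher lay in C4a (4), C9 (3), C8a (2) and C6 (1). In C4b 0 windows passed in either comparison of the sexes, and in Hc and Cfb 1 window each passed in the parents and 0 in the F1. The 4 calls of the parents became 2 without the first B6 sire or the second C3H/HeN dam and 1 without the second C3H/HeN sire. The 2 calls of the F1 became 1 without the first B6C3F1 son, the third B6C3F1 daughter, the third C3B6F1 son or the third C3B6F1 daughter. The windows of a gene share their animals and are not replicates of each other.

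**Figure D1:**
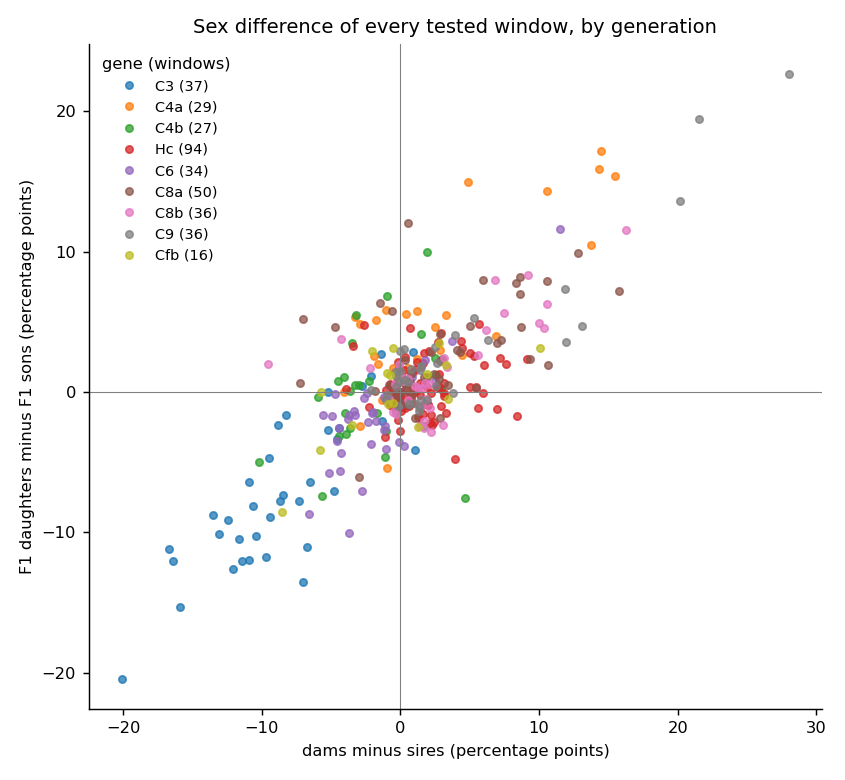
Difference in methylation between the sexes in every tested member window, dams minus sires on the x axis and F1 daughters minus F1 sons on the y axis, both in percentage points. Points are windows, coloured by gene. C3 windows extend to the lower left, to -20.1 and -20.4 points, and C9 windows to the upper right, to 28.0 and 22.6 points.

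C3, the protein on which all activation routes converge, had 21 of its 37 windows below 50%, the 7 low windows around its start included. The window that was called in both comparisons is chr17:57362501-57363000 (mm9), with 13 CpGs, overlapping an annotated exon 4808 bases into the gene. Its first 300 bases are printed on the gene's strand (chr17:57362501-57362800, minus), with the CpGs in capitals, because they hold 8 of the CpGs behind the largest C3 difference.
C3 window: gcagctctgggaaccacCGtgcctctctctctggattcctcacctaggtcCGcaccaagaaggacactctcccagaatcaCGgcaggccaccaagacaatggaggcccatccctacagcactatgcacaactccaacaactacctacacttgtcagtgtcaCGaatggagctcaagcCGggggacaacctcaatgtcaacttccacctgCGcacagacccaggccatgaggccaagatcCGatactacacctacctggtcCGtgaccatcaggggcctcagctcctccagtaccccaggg

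In this C3 window the 3 B6 sires had 60.7%, 57.4% and 53.8% methylation and the 3 B6 dams 38.7%, 41.9% and 32.5%. The C3H/HeN sires had 56.2%, 60.4% and 58.7% and the C3H/HeN dams 37.2%, 35.2% and 41.4%. Every sire was above every dam in both strains. The B6C3F1 sons had 66.0%, 59.3% and 62.8% and the daughters 41.8%, 37.8% and 35.0%. The C3B6F1 sons had 51.8%, 55.5% and 57.7% and the daughters 44.4%, 36.5% and 35.1%. Of the 6 virgin daughters all but the first C3B6F1 daughter lay in the range of the dams, and no son overlapped a daughter. Dams were lower than sires by 20.1 points (log2 difference -1.17, SE 0.14, limma adjusted p = 2.74e-06, n = 6 and 6 animals), and daughters lower than sons by 20.4 points (log2 difference -1.19, SE 0.14, limma adjusted p = 4.81e-06). The strains did not separate there: B6 parents had 47.5% ± 11.4 (SD, n = 6) and C3H/HeN parents 48.2% ± 11.5.

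The C3 windows that passed between the sexes lay from 2808 bases into the gene on. The 7 windows from the upstream region to 1808 bases into the gene had mean levels of 8.78% to 26.1% in sires, and 0 of them passed between the sexes. From 2808 bases on, 14 of 30 windows passed in the parents and 10 in the F1, all lower in females. Of all windows 0.462% were lower in dams and 0.0518% lower in daughters. The boundary was drawn on these same values, so that the 0 of 7 before it is no separate result. In all 30 windows from 2808 bases on the mean of the dams was below that of the sires, by 2.74 to 20.1 points. In 7 of the 14 no dam overlapped a sire. The share without overlap among all windows that passed was not counted. Over the whole interval the sires averaged 52.2% ± 2.4 (SD, n = 6), the dams 43.5% ± 1.8, the sons 50.2% ± 0.55 and the daughters 42.9% ± 1.8. The lowest sire, at 49.1%, was above the highest dam, at 45.5%, and the overlap of whole intervals was not counted over all genes. The start region itself, 500 bases on either side, had 5 CpGs and 15.8% ± 5.6 in sires and 13.7% ± 4.9 in dams, a difference below the spread between animals (limma adjusted p = 0.923). Its single CpGs went in both directions. Summed over animals the CpG 45 bases into the gene had 18.9% (95% Wilson interval 13.4% to 26.0%) in sires and 6.72% (3.57% to 12.3%) in dams, and the CpG at -331 had 9.04% (5.64% to 14.2%) and 16.96% (12.1% to 23.3%). These intervals cover counting error alone, and single CpGs were not tested between animals.

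**Figure D2:**
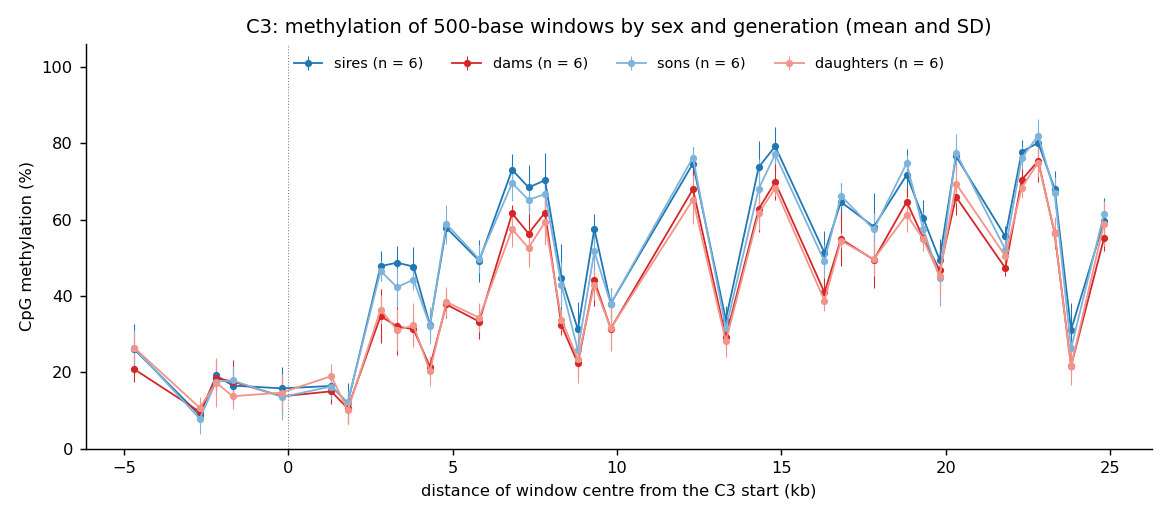
Methylation (%) of the tested 500-base windows of C3 against the distance of their centre from the C3 start (kb), as mean and SD of 6 sires, 6 dams, 6 F1 sons and 6 F1 daughters. Before the gene and in its first 1808 bases all means lie between 7.88% and 26.5%, and from 2808 bases on the sires run above the dams in all 30 windows, by 20.1 points at 4808 bases. Daughters minus sons runs from -20.4 to 0.44 points in these windows.

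C4a and C4b were considered with their depth, since their sequences aligned with 96.2% identity over 14245 bases and reads can be placed on the wrong copy. Of the 100-base words of the C4a gene 17.3% recurred within the pair of genes, and 22.7% after conversion of C to T. C4a held 59 listed differences between the strains (2.90 per kb, where the autosomes averaged 1.14), C4b 20 (0.930 per kb), C6 59 over its longer interval (0.626 per kb) and the other members at most 4. Among CG dinucleotides of mm9, 91.8% were listed for C4a, 96.8% for C4b and 82.9% for C6, and at least 99.5% for the others. Scaled to the same total, C4a had 23.7 counts per CpG in B6 parents and 20.8 in C3H/HeN parents, a ratio of 1.14. This was the only member above 1, and the others lay between 0.941 and 0.990.

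The start of C4a was the most methylated of the 9 and differed between the sexes. The 250 bases before the annotated starts of both copies are printed on their own strand (chr17:34960410-34960659 and chr17:34880828-34881077, minus) so that their CpGs, in capitals, can be compared.
C4a upstream: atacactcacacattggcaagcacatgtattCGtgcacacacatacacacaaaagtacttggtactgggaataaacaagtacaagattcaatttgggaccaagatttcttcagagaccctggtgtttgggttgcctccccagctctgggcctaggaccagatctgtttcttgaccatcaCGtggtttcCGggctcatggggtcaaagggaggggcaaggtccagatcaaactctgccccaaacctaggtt
C4b upstream: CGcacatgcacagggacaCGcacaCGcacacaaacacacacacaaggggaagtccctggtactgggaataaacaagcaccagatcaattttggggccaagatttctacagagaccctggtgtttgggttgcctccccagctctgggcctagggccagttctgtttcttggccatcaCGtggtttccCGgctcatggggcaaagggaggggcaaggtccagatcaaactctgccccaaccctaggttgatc
The C4a stretch carries a listed strain difference, A156G, with the base of B6 first and positions counted from 1 at the 5′ end. The NF-kB motif (GGGA and CCC with any 3 bases between), searched on both strands, was found in the C4b stretch (GGGAAGTCCC) and not in that of C4a. It was present in 5.04% of such stretches of the 21419 genes and in 3 of the 9 members.

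Over 500 bases on either side of the start, the 8 CpGs of C4a had 54.7%, 44.8% and 49.3% methylation in B6 sires and 63.7%, 68.6% and 69.1% in B6 dams. The C3H/HeN sires had 40.6%, 49.3% and 59.6% and the dams 60.2%, 56.4% and 64.2%. Females were higher, and only the third C3H/HeN sire reached into the range of the dams. The B6C3F1 sons had 45.3%, 47.0% and 49.6% and the daughters 70.3%, 67.8% and 68.0%. The C3B6F1 sons had 53.0%, 53.2% and 48.5% and the daughters 66.7%, 66.8% and 64.8%. In the F1 no son overlapped a daughter. The difference was 14.0 points in the parents (limma adjusted p = 0.00143 over 20416 start regions) and 18.0 points in the F1 (limma adjusted p = 4.35e-05). Both were below the 20 points of a call, and 0 member start regions were called in either generation (background 0.108% and 0.0637% of start regions). By the adjusted p alone 0.509% of all start regions differed between dams and sires and 0.23% between daughters and sons.

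Single CpGs before the C4a start did not move alike. The CpG 61 bases before the start had 33.5% methylation in sires (95% Wilson interval 26.7 to 41.2) and 58.2% in dams (49.7 to 66.2), 33.6% in sons and 61.1% in daughters. The CpG 9 bases further upstream had 14.2% in sires and 8.4% in dams, 12.5% in sons and 13.4% in daughters. These intervals cover counting error only, over 131 to 162 reads summed over 6 animals. In C4b the start region was low, with 18.5% ± 2.6 (SD, n = 6) in sires and 18.3% ± 2.0 in dams, and its CpG 63 bases before the start had 9.8% in sires and 10.6% in dams. That CpG and the C4a CpG at 61 bases lie at neighbouring bases of the printed stretches and are not the same site.

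Further sex differences in C4a lay upstream. In chr17:34961001-34961500, centred at -842 bases from the start, sires ranged from 65.1% to 84.2% with a median of 74.2% and dams from 84.7% to 97.1% with a median of 90.1%. Sons ranged from 66.2% to 80.6% (median 76.9%) and daughters from 85.5% to 92.9% (median 91.8%). Neither generation overlapped between the sexes. The differences were 15.5 points in the parents (limma adjusted p = 3.94e-07) and 15.4 points in the F1 (5.76e-06). In chr17:34962501-34963000, centred at -2342 bases, they were 14.4 points (adjusted p = 2.92e-07) and 15.9 points (5.95e-05), again with no overlap. The former window holds 4 listed strain differences and the latter 6.

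**Figure D3:**
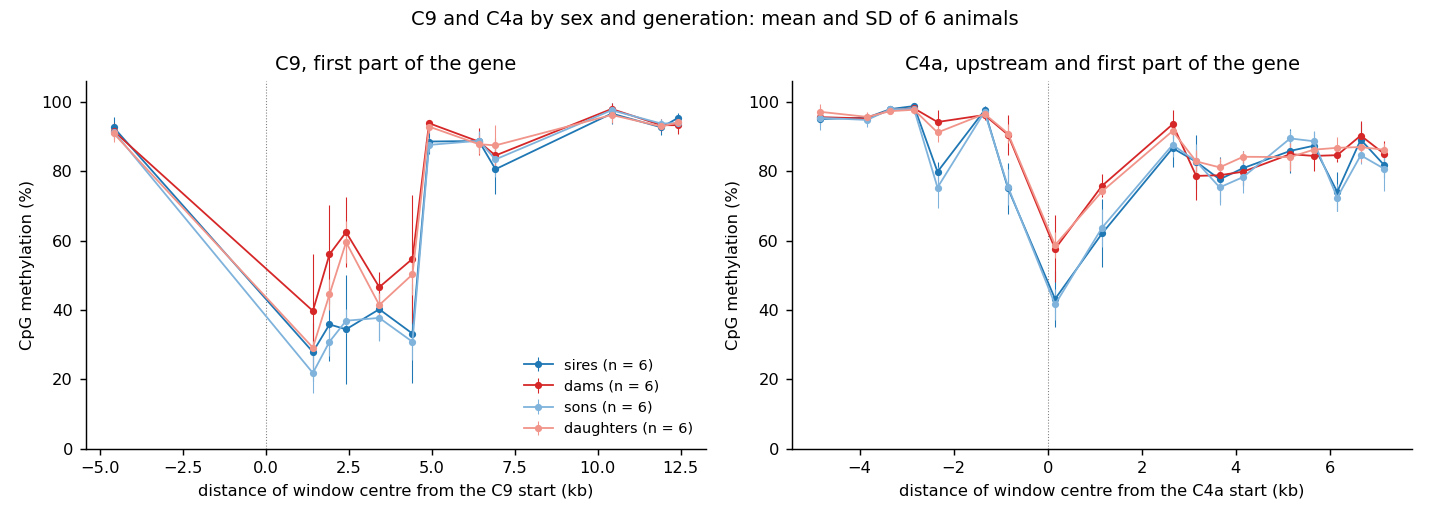
Methylation (%) of the tested windows of C9 (left) and C4a (right) against the distance of the window centre from the gene's start (kb), as mean and SD of 6 sires, 6 dams, 6 F1 sons and 6 F1 daughters. In C9 females run above males at 1924, 2424 and 4424 bases into the gene. In C4a they run above males at -2342 and -842 bases.

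Between the strains the C4 copies held 3 of the 5 called member windows (background 0.494%). The mean of the leukocyte marker starts was lower in B6 parents (78.1% against 82.4% in C3H/HeN parents). The means of the cholangiocyte, endothelial, stellate and other-organ lists were lower in B6 too. That of the hepatocyte list was higher in B6 (25.2% against 21.8%). The part of the mixture of cells in the strain differences was not tested. By the adjusted p alone 58 of the 359 windows differed between B6 and C3H/HeN parents (16.2%, against 6.63% of all windows), 14 higher and 44 lower in B6. The largest difference of any member was in C4b, overlapping an annotated exon 4076 bases into the gene, at chr17:34876501-34877000. It has 8 CpGs, no listed strain difference and no 100-base word that recurs in C4a or C4b. Its first 300 bases are shown on the gene's strand because they carry 6 of these CpGs.
C4b window: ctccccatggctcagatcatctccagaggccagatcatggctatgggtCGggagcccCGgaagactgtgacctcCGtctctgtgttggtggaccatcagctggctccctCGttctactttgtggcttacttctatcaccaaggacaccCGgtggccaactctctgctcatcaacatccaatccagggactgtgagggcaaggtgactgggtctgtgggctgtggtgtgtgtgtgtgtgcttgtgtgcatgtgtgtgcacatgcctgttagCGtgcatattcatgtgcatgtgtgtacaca

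The B6 parents had 66.0%, 55.7% and 63.3% (males) and 64.7%, 67.5% and 57.7% (females) in the C4b window. The C3H/HeN parents had 93.2%, 93.6% and 92.3% (males) and 87.9%, 89.3% and 91.1% (females). No B6 animal came near a C3H/HeN animal. The sexes were mixed in B6, and in C3H/HeN each of the 3 sires was above each of the 3 dams. The difference was -28.8 points (log2 difference -2.58, SE 0.17, limma adjusted p = 5.96e-13), at 19.5 scaled counts per CpG in B6 and 18.1 in C3H/HeN. The F1 averaged 79.7% ± 3.7 (SD, n = 12), between 74.2% and 84.8%. They lay between the parental strains without overlap with either. The aligned C4a window had 77.4% ± 4.2 in B6 and 83.3% ± 1.5 in C3H/HeN.

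At the 3′ end of C4a, chr17:34946501-34947000 (7 CpGs, exonic, 1 listed strain difference) was higher in B6. B6 parents ranged from 72.8% to 85.9% with a median of 76.6% and C3H/HeN parents from 47.2% to 60.7% with a median of 53.5%. The strains did not overlap, and the F1 ranged from 60.5% to 79.0%. The difference was 23.9 points (limma adjusted p = 6.84e-08), and 20.2 points with the same weight for every CpG. The aligned C4b window had 83.4% ± 4.7 in B6 and 80.1% ± 3.5 in C3H/HeN. Of the 100-base words of the C4a window 3.74% recurred within the pair of genes, 15.7% after conversion of C to T and 34.4% after conversion of G to A. It held 24.8 scaled counts per CpG in B6 and 18.0 in C3H/HeN (ratio 1.38, limma adjusted p = 0.0214). The part of read placement and depth in this strain difference was not tested.

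The third called window of the C4 pair, chr17:34952001-34952500 in C4a, came with a difference in depth. B6 parents had 30.7% ± 3.0 (SD, n = 6) and C3H/HeN parents 55.9% ± 7.5, a difference of -25.2 points (limma adjusted p = 1.95e-06). It had 29.2 scaled counts per CpG in B6 and 13.7 in C3H/HeN, and was the only one of 362 member windows past a 2-fold difference in depth, where 2.87% of all windows were. It did not pass without the second B6 sire, the third B6 dam or the first C3H/HeN sire. The 3 CpGs nearest the 3′ side had 184, 187 and 206 counts over the B6 parents and 27, 12 and 44 over the C3H/HeN parents. Giving every CpG the same weight, an alternative chosen after seeing the data, the strains had 31.0% ± 2.5 and 35.7% ± 7.7, a difference of -4.73 points. The C4b window described above had -28.7 points under that weighting.

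**Figure D4:**
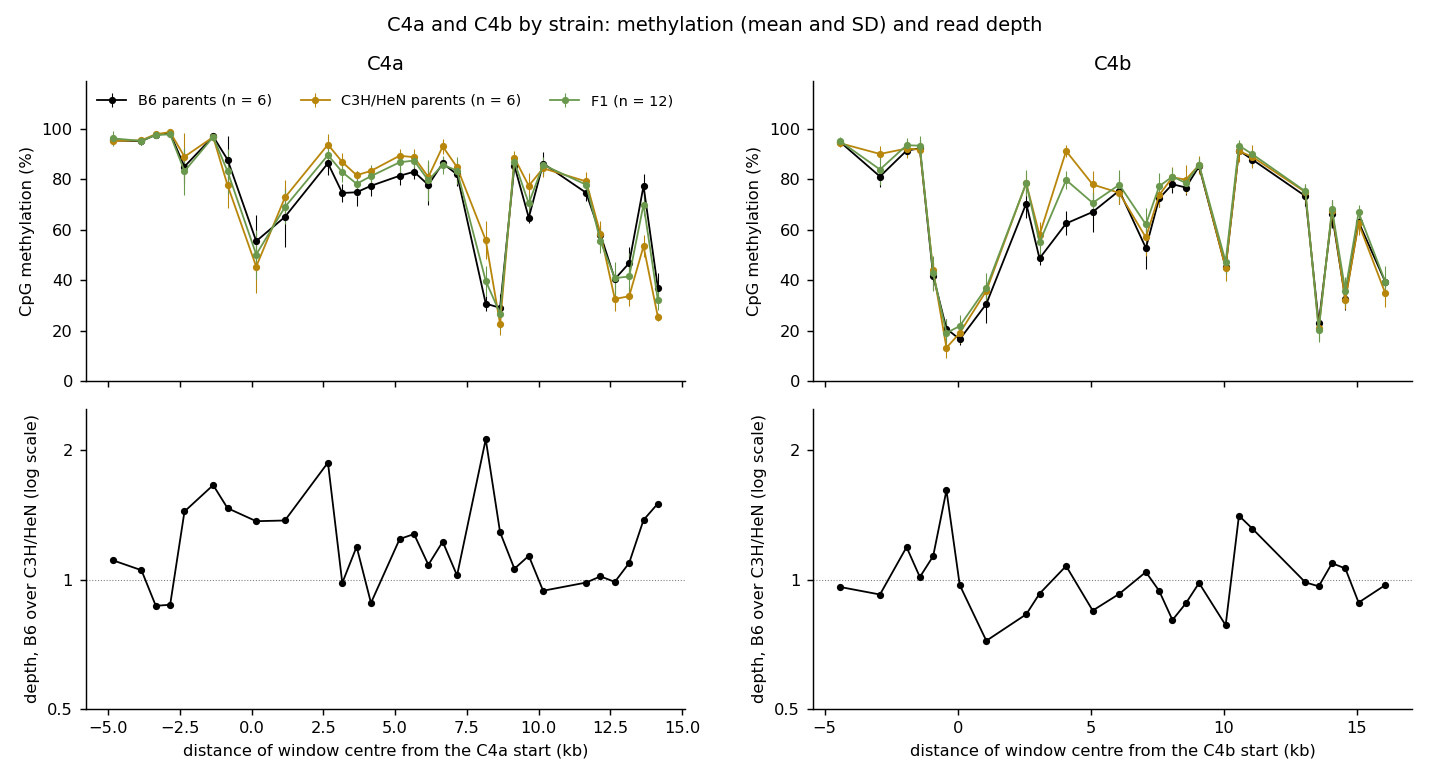
Top, methylation (%) of the tested windows of C4a and C4b against the distance of their centre from the gene's start (kb), as mean and SD of 6 B6 parents, 6 C3H/HeN parents and 12 F1 animals. Bottom, read depth of B6 over C3H/HeN parents on a log scale. C4b shows B6 at 62.5% and C3H/HeN at 91.2% at 4076 bases with a depth ratio near 1, and C4a a depth ratio of 2.12 at 8158 bases.

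Cfb, the factor of the alternative route, had the least methylated start of the 9, with 6.1% over 12 CpGs and all animals between 3.05% and 11.1%. The other starts averaged 13.4% (Hc), 14.4% (C8a), 14.5% (C3), 19.4% (C8b), 20.0% (C4b), 22.8% (C6), 23.4% (C9) and 57.6% (C4a). The lowest tested window of each gene had 5.99% (Cfb), 9.27% (C3), 12.4% (Hc), 14.1% (C8a), 17.1% (C8b), 18.0% (C4b), 18.6% (C6), 26.3% (C4a) and 29.7% (C9). For Hc, C6, C8a and C8b it lay 76 to 329 bases into the gene, and for C4a 8658 bases into it. All 20416 tested start regions had a median of 6.36% and quartiles of 0.772% and 69.3%. A single upstream window of Cfb, centred at -788 bases from the start, had 48.6% ± 4.5 in dams and 38.5% ± 3.7 in sires (10.1 points, limma adjusted p = 0.0167), and 45.6% and 42.5% in daughters and sons (adjusted p = 0.868). Between strains 1 of the 16 Cfb windows passed (6.25%, near the 6.63% of all windows), 5212 bases into the gene and lower in B6, with 67.3% ± 4.7 in B6 and 76.1% ± 4.0 in C3H/HeN.

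Hc encodes C5, the substrate of the terminal pathway. It carries no listed strain difference over 84.1 kb, all 881 of its CG dinucleotides were listed, and its ratio of depth, B6 over C3H/HeN, was 0.941. Of its 94 windows 17 were lower in B6 and 0 higher by the adjusted p alone, where 4.29% and 2.34% of all windows were. These 17 were spread from 4207 to 68207 bases into the gene and differed by 4.86 to 12.7 points. In 7 of them no B6 animal overlapped a C3H/HeN animal, and the share without overlap among all windows that passed was not counted. Over the whole interval B6 parents averaged 79.1% ± 1.1, with a highest animal of 80.1%, and C3H/HeN parents 82.2% ± 0.71, with a lowest animal of 81.0%. The median difference over all Hc windows was -2.53 points, and over all 1456902 windows -0.634. The start region was low in all groups (11.9% ± 3.1 in sires and 12.8% ± 2.9 in dams), and the lowest window had 12.4%. Between the sexes 1 of the 94 windows, 65707 bases into the gene, passed in the parents, a share of 1.06% beside 0.974% of all windows (70.7% ± 3.7 in sires, 79.8% ± 5.2 in dams, limma adjusted p = 0.0154).

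C6, C8a, C8b and C9 encode parts of the membrane pore. Among the start regions those of C6 and C4a differed between the sexes. The 250 bases before the start of C6 (chr15:4676925-4677174, plus strand) and the first 250 bases of the first intron (chr15:4677318-4677567) are printed. The CpGs of the former were low in both sexes, whereas the first CpG of the latter was higher in females.
C6 upstream: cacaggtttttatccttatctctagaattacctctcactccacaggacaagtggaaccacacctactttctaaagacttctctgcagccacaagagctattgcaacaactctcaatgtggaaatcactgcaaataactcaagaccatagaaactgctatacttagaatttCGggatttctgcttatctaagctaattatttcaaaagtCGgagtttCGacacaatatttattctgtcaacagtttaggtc
C6 first intron: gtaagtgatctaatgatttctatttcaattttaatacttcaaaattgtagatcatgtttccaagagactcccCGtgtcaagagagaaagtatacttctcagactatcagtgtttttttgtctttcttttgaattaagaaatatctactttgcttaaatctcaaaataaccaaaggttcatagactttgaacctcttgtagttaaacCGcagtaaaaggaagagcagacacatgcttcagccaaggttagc

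The start region of C6 had 21.8%, 16.2% and 17.6% methylation in B6 sires and 39.0%, 26.0% and 33.8% in B6 dams. The C3H/HeN sires had 12.4%, 10.0% and 12.7% and the dams 25.2%, 24.8% and 24.6%. No sire overlapped a dam, and within each sex B6 was above C3H/HeN. The B6C3F1 sons had 14.9%, 17.5% and 19.3% and the daughters 25.5%, 28.8% and 40.3%. The C3B6F1 sons had 20.8%, 14.3% and 15.7% and the daughters 28.5%, 31.7% and 26.6%. The sexes were apart in the F1 too. The differences were 13.8 points in the parents (limma adjusted p = 3.05e-05) and 13.1 points in the F1 (4.62e-04), and B6 was above C3H/HeN by 7.44 points (0.00877, where 9.04% of start regions passed). Over 250 bases on either side the strain difference was 6.81 points and did not pass.

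The CpGs nearest the C6 start were low in every class. At 80, 42 and 34 bases before the start the sires had 6.9%, 14.4% and 13.7% and the dams 5.2%, 14.4% and 13.2%. In the first intron, 215 bases after the start, the CpG (the first capitals of the intron sequence) had 14.9% in sires (95% Wilson interval 10.7 to 20.4), 61.3% in dams (54.7 to 67.5), 18.4% in sons and 59.5% in daughters. The CpG 335 bases before the start had 44.9% in sires and 75.2% in dams, 53.5% in sons and 78.6% in daughters. The females were thus higher at the CpGs 335 bases before and 215 bases after a start whose nearest CpGs were low in both sexes. The start region holds 11 CpGs, not all of which are given here. The intervals cover counting error alone, and single CpGs were not tested between animals.

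C9, the unit that polymerizes into the pore, had 3 called windows in its first intron, on a stretch with no listed strain difference. The 5 tested windows from 1424 to 4424 bases into the gene had 27.9% to 40.2% methylation in sires, and the other 31 windows of C9 58.8% to 96.6%. The window 2424 bases into the gene, chr15:6397501-6398000 (8 CpGs), was called in all 3 comparisons, and that at 4424 bases, chr15:6399501-6400000 (12 CpGs), showed the largest strain difference of the gene. Parts of both are printed on the plus strand (chr15:6397501-6397800 and chr15:6399615-6399914) as the stretches with most of their CpGs.
C9 window at 2424: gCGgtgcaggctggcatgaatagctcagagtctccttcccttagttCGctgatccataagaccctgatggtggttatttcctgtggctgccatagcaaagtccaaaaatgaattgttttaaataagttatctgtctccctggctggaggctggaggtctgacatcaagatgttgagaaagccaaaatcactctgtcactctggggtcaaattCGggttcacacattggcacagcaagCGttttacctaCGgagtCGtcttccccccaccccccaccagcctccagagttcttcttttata
C9 window at 4424: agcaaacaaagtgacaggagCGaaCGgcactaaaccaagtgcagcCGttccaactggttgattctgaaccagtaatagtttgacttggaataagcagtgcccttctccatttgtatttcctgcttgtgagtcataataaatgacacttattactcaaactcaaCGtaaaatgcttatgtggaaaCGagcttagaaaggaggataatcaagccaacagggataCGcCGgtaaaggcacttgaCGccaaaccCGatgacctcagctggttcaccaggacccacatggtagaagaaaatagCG
The first of these contains CAAAGTCCA, the motif searched for HNF4, at position 96, and 0.640% of all windows contain it on either strand. A match is a description of the letters and not of a bound site.

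In the C9 window at 2424 bases the B6 sires had 56.0%, 32.3% and 48.9% and the B6 dams 73.2%, 71.8% and 69.4%. The C3H/HeN sires had 26.2%, 12.9% and 30.3% and the dams 54.7%, 51.0% and 54.5%. Within each strain every dam was above every sire, and within each sex every B6 animal was above every C3H/HeN animal. The B6C3F1 sons had 37.4%, 36.7% and 31.7% and the daughters 52.1%, 52.6% and 61.1%. The C3B6F1 sons had 42.5%, 37.3% and 35.9% and the daughters 65.8%, 59.6% and 66.0%. No son overlapped a daughter. Dams were above sires by 28.0 points (log2 difference 1.78, SE 0.21, limma adjusted p = 9.78e-07) and daughters above sons by 22.6 points (1.33, SE 0.21, 3.60e-04). B6 parents were above C3H/HeN parents by 20.4 points (log2 difference 1.33, SE 0.21, limma adjusted p = 3.14e-05).

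In the C9 window at 4424 bases B6 parents ranged from 36.8% to 75.3% with a median of 59.0% and C3H/HeN parents from 11.8% to 44.9% with a median of 32.5%. The ranges overlapped with both sexes pooled and did not within each sex. B6 sires had 49.5%, 36.8% and 47.1% against 23.8%, 11.8% and 30.2% in C3H/HeN sires, and B6 dams 69.8%, 75.3% and 68.6% against 35.3%, 34.7% and 44.9%. The strain difference was 27.7 points (limma adjusted p = 3.78e-07) and that of dams and sires 21.6 points (1.06e-04). Daughters were above sons by 19.4 points (0.00343), short of a call. The window at 1924 bases, chr15:6397001-6397500, was called between dams and sires only, at 20.2 points (1.66e-04). The annotated start of C9 was low, with 23.4% over 4 CpGs, and its sexes did not pass the test (adjusted p = 0.44 in the parents).

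C8a and C8b, neighbours that encode the alpha and beta chains of C8, had no called window of 5 or more CpGs between the sexes. By the adjusted p alone 6 of the 50 C8a windows were higher in dams and 3 higher in daughters, 0 lower in either, and 2 passed in both. Of all windows 0.512% were higher and 0.462% lower in dams, and 0.292% higher and 0.0518% lower in daughters. In both generations with the same direction 0.235% passed. At 7752 bases into C8a (chr4:104541001-104541500) dams had 72.7% ± 2.5 and sires 56.9% ± 4.4 (15.8 points, limma adjusted p = 1.50e-05), and daughters 70.8% ± 1.6 and sons 63.6% ± 4.4 (7.2 points, adjusted p = 0.211). Of the 36 C8b windows 5 were higher and 1 lower in dams, and 0 passed in the F1, where 0.343% of all windows did. Over the whole intervals sires averaged 71.7% ± 1.3 and dams 76.1% ± 0.69 for C8a, and 78.5% ± 0.45 and 82.3% ± 1.1 for C8b. In C8a sons and daughters had 72.1% ± 0.78 and 75.5% ± 0.46, and in C8b 78.8% ± 0.97 and 80.9% ± 0.53. In each of these 4 pairs the lowest female was above the highest male. The same held for the interval of C9 in both generations and for that of C4a in the F1. The interval of C3 separated with the females lower. Whole intervals were not tested for any of the 9 genes, and their overlap was not counted over all genes. The start region of C8a was higher in B6 (16.6% ± 4.9 against 9.0% ± 2.7, adjusted p = 5.66e-04). That difference was 1.25 points over 1000 bases on either side and 5.35 points over 250 bases, past the test in neither.

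**Figure D5:**
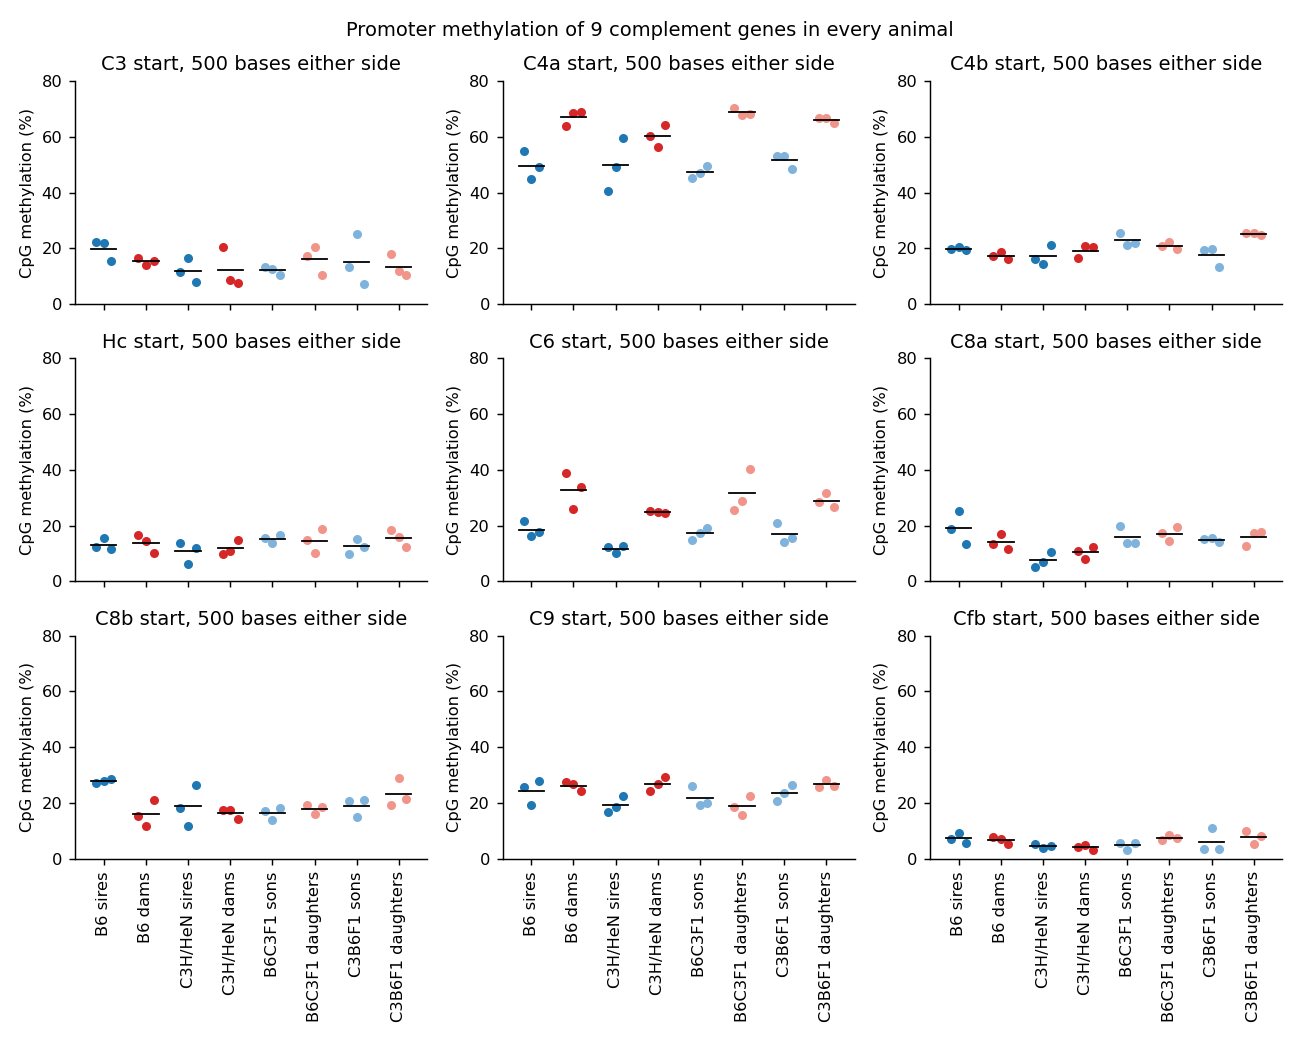
Methylation (%) of the region 500 bases on either side of the start of each of the 9 genes, with a point for every animal and a bar at the mean of each group of 3. The means of females lie above those of males at C4a and C6 in both strains and both crosses, with 1 C3H/HeN sire within the range of the dams at C4a, and the other 7 start regions lie between 3.05% and 29.5% in every animal.

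C6, C8a, C8b and C9 in both generations, and C4a in the F1, held further called sex differences in windows of 3 or 4 CpGs. With windows of at least 3 CpGs 16 member windows were called between dams and sires (background 0.11%) and 8 between daughters and sons (background 0.0571%). All but the C3 window were higher in females. The following windows were picked after their values were seen. In C6, chr15:4678001-4678500 (3 CpGs, 1076 bases into the gene) had 24.1% ± 7.8 (SD, n = 6) in sires and 68.8% ± 4.7 in dams, 29.0% ± 4.1 in sons and 66.3% ± 4.2 in daughters. In C8a, chr4:104512501-104513000 (4 CpGs) had 35.7% ± 7.3, 73.8% ± 6.9, 44.4% ± 4.6 and 69.0% ± 2.9 in the same order. In the interval of C8b, past the end of the gene, chr4:104477501-104478000 (4 CpGs) had 31.7% ± 4.5, 63.5% ± 2.5, 32.5% ± 4.2 and 54.4% ± 6.4. In each of these windows and both generations the females and males did not overlap, and the largest of the 6 limma adjusted p-values was 1.02e-04.

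The remaining comparisons gave few differences at the 9 genes. Dams and F1 daughters differ in breeding history and also as inbred and hybrid animals, which cannot be told apart in this comparison, and its background share is so low that a count of 0 is near it. By limma, 0 of the 359 windows passed the adjusted p between dams and F1 daughters (background 0.181%), and 50 had an unadjusted p below 0.05. The smallest adjusted p was 0.101. Between sires and F1 sons 0 passed (22 unadjusted, background 0.0143%), between B6C3F1 and C3B6F1 0 (32 unadjusted, background 0.00192%), and between the F1 and the mean of the parents 0 (33 unadjusted, background 0.134%). The test of whether the difference between dams and sires depended on strain passed in 0 windows (26 unadjusted, background 0.00178%). A quasi-binomial test on the counts found 3 windows between dams and daughters, 0 between sires and sons, 0 between the crosses, 2 between the F1 and the mean of the parents and 0 for strain dependence. A p that misses the threshold does not show that levels were equal: over the 359 windows the differences between dams and daughters ran from -9.9 to 11.5 points.

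Among 32 other complement genes from a fixed list (722 windows that no member shares), 1 window was called higher and 1 lower in dams (0.104% of all windows were called), and 2 higher in daughters (0.051% of all windows). By the adjusted p alone 16 were higher and 4 lower in dams and 10 higher and 2 lower in daughters, 2.77% and 1.66% of the windows, where 0.974% and 0.343% of all windows passed. The largest difference was in the annotated interval of C1s, a protease of the classical route, at chr6:124589001-124589500 (8 CpGs). It had 27.9% ± 7.2 (SD, n = 6) in sires, 92.0% ± 2.8 in dams, 33.8% ± 9.9 in sons and 90.9% ± 1.8 in daughters (64.1 and 57.1 points, limma adjusted p = 5.46e-15 and 3.15e-13). Between strains 3 of these 722 windows were called higher and 3 lower in B6, where 0.494% of all windows were called, and 8.73% passed the adjusted p alone, where 6.63% of all windows did. The largest of the called differences was in Mbl2, a lectin that starts the lectin route (70.9% ± 8.2 in B6 and 27.1% ± 10.2 in C3H/HeN).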

How the data were processed

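The authors sequenced bisulfite-treated liver DNA of 24 mice, aligned the reads to mm9 with Bismark, whose own tool removed duplicates (the submitters' processing notes for these samples name CASAVA 1.8.2, Bismark 0.7.8, Bowtie 0.12.8 and Picard 1.110, the last with no role stated for bisulfite reads) and deposited tables of methylated and unmethylated read counts per CpG, which were the values used here. The tables hold 19751474 CpGs, limited by the authors to those present in mm9 and in both strains, and a list of single-nucleotide differences between the strains was used for its positions. All reads were placed on mm9, a C57BL/6J genome, so that reads of C3H/HeN that differ from it, or that match both C4 copies, may be lost or misplaced.

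Counts were summed in 500-base windows of a fixed grid over the autosomes and in regions 500 bases on either side of gene starts (at least 2 CpGs). Windows needed at least 5 CpGs and 30 reads in every animal. The log2 of (methylated + 1)/(unmethylated + 1) was fitted with limma 3.58.1 (R 4.3.3; trended, robust variances) as 8 group means over 24 animals, with Benjamini-Hochberg adjustment over 1456902 windows or 20416 start regions. Percentages in the text are methylated counts over all counts, ± is the SD over animals. Depth was tested likewise on counts per CpG scaled to equal totals, with a 2-fold threshold. The study's own per-CpG region callers were not used here. The C4 copies were aligned with MAFFT 7.526. Sequences came from the mm9 genome. Samples of the FOXA1 chromatin immunoprecipitation were not analysed here.

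Counts were simulated over 42678 windows of a single chromosome with a fixed setting of the spread. Windows of intermediate methylation were changed between the strains. At 10 points 16% of the changed windows passed the adjusted p and 0% were called. At 20 points 90% passed and 48% were called, and at 30 points 100% were called. These shares do not carry over to windows of low or high methylation or to adjustment over all windows. The genes, lists and comparisons were chosen with earlier results of these data known. The rule for naming was all members with their start region, interval, depth, lowest window and called windows. Alternatives were a pseudocount of 5, 100 reads, 3 CpGs, 10 or 30 points, non-robust variances, a quasi-binomial test, the replicate number as a block, a grid shifted by 250 bases, CpGs within 10 bases of a strain difference left out, windows with a depth ratio above 2 left out, wider and narrower start regions, and each animal left out in turn.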

Additional observations from a re-analysis of the deposited data

How the results depend on the processing

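All 17 differences of single windows or start regions that were followed kept their direction under every alternative that could test them. They kept their side of the adjusted p too, except the strain difference of the C8a start (1.25 points at 1000 bases and 5.35 at 250 bases on either side) and of the C6 start (6.81 at 250 bases). Equal weighting of the CpGs was not among these alternatives and gave no test. Under it the strain difference of the C4a window chr17:34952001-34952500 went from -25.2 to -4.73 points. The alternative by depth ratio left that window out. With a minimum of 10 points 23 windows were called between strains, 32 between dams and sires and 21 between daughters and sons, with 2 start regions in each comparison of the sexes, and with 30 points 0 windows were called in all 3. With 3 CpGs per window dams and sires had 16 calls and 70 windows past the adjusted p, daughters and sons 8 calls, and dams and daughters 2 past the adjusted p. With 100 reads the strains had 3 calls and 36 past the adjusted p, and dams and daughters 1. The shifted grid gave 3 strain calls, 4 between daughters and sons and 2 windows past the adjusted p between dams and daughters. The quasi-binomial test gave 3 between dams and daughters and 2 between the F1 and the mean of the parents. At 1.5-fold 5 windows differed in depth. The causes of these changes were not tested, apart from the larger or smaller set of windows. Among these alternatives the share of all windows is given only for the sex calls with 3 CpGs, above. The other counts have no background beside them and cannot be set against all windows.

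Leaving out each of the 24 animals in turn gave 4 to 7 strain calls and 46 to 60 windows past the adjusted p, 1 to 4 and 35 to 43 between dams and sires, 1 to 3 and 15 to 24 between daughters and sons, and 0 to 1 past the adjusted p between dams and daughters. The 15 were reached without the second B6C3F1 daughter or the second C3B6F1 daughter, and the 1 without the third B6 dam or the first C3B6F1 son. The difference in depth of the C4a window gave 0 to 1, with 0 without the second B6 sire, the third B6 dam or the first C3H/HeN sire.

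The labels give the groups shared replicate numbers, but 0 of 84 same-numbered pairs had a correlation of their deviations over 0.1, with the highest at 0.0682, so that the numbers were not taken to pair the animals. On the other side, 18 of 24 animals correlated best with their own number. The study took 3 families per cross, each with a sire, a dam, a daughter and a son, so that related animals are among the groups. The labels do not say whether a number marks a family. With the replicate number as a block 5 windows were called between strains, 4 between dams and sires and 2 between daughters and sons, as without it, and 58, 42 and 21 passed the adjusted p. Counting by the adjusted p alone, weighting CpGs equally and the stretches taken of C3 and C9 were chosen after seeing the data. Depth, at 19.4 to 32.8 counts per CpG and animal, limits windows of few CpGs: 3 windows of C8a had fewer than 30 reads in an animal and were not tested.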

Other observations

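Further complement genes held called windows that were not described above. Mbl2, which encodes a mannose-binding lectin, had in the window chr19:30308501-30309000 47.0% ± 6.2 (SD, n = 6) in sires and 25.7% ± 2.1 in dams (-21.3 points, limma adjusted p = 5.48e-06). The F1 sons had 38.9% ± 3.9 and the daughters 37.9% ± 6.0 (-1.05 points, adjusted p = 0.976). Cd59a, an inhibitor of the membrane pore, had in the window chr2:103931001-103931500 44.1% ± 11.4 in sons and 67.1% ± 5.0 in daughters (23.0 points, limma adjusted p = 4.81e-04), and 42.1% ± 6.6 in sires and 53.1% ± 3.4 in dams (10.99 points, adjusted p = 0.192). Dams minus F1 daughters was -12.1 points in that Mbl2 window (limma adjusted p = 0.0359) and -12.2 points in the Mbl2 window chr19:30312001-30312500 (adjusted p = 0.0237), the only 2 of the 722 windows of these genes past the adjusted p between dams and F1 daughters (0.277%, near the 0.181% of all windows). Whether the sex difference itself changed between the generations was not tested for either gene.

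Between the strains C1qb, a chain of the C1q recognition protein, had 42.4% ± 3.7 in B6 and 76.7% ± 5.9 in C3H/HeN parents at chr4:136444001-136444500 (-34.4 points, limma adjusted p = 3.67e-09). Cfhr2, related to the inhibitor factor H, had 95.0% ± 1.9 and 74.2% ± 1.4 at chr1:141845001-141845500 (20.8 points, adjusted p = 7.96e-12). Cpn1, a subunit of the carboxypeptidase that inactivates complement fragments, had 69.8% ± 5.6 and 90.3% ± 3.8 at chr19:44043501-44044000 (-20.5 points, adjusted p = 4.42e-08). The intervals taken for C1rb and C1s shared 2 called windows, at chr6:124484001-124484500 with 68.8% ± 3.8 and 89.996% ± 2.07 and at chr6:124502501-124503000 with 75.5% ± 3.5 and 52.0% ± 4.6.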
